A study of Mus musculus with 4 samples.

Results

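The 10 genes described here are Atf4, its stress targets Ddit3, Trib3 and Chac1, the asparagine synthetase gene Asns, and the serine and mitochondrial folate genes Phgdh, Psat1, Psph, Shmt2 and Mthfd2. They were chosen by name, and each had 1 row among the 23875 genes of the deposited table. RNA was sequenced from 2 mouse epithelial ovarian cancer lines, ID8-P0 and ID8-PW2. ID8-P0 came from spontaneously transformed C57BL/6 ovarian surface epithelium, carries GFP and luciferase and had not been in a mouse. ID8-PW2 was derived from ID8-P0 and recovered from peritoneal wall tumors after 2 passages in C57BL/6 mice. The genotype of both lines is given as wild type. Each line had 2 libraries, from cells kept for 24 h in suspension on poly-HEMA in medium with 4% FBS. Lane 3 held both ID8-P0 libraries, whereas those of ID8-PW2 ran on lanes 4 and 8, so that line and lane cannot be told apart.

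The study set ID8-PW2 against ID8-P0, and that comparison is not made here. The headers of the 4 count columns match no sample label, so the counts could be assigned to neither line and were not used. The columns of the authors' own comparison were left out. Every level below is therefore the authors' mean over both lines in CPM (a gene's read count relative to the library's total), with no value per library, SD or total depth. A gene that differs between ID8-P0 and ID8-PW2 and a gene that does not can have the same mean. The spread is given as the biological coefficient of variation (BCV), the square root of the dispersion that the authors estimated with edgeR. Depth behind each value is unknown, so no counting interval is given.

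ATF4 is a transcription factor of the integrated stress response. When amino acids run short, proteins misfold in the ER or haem is lacking, kinases phosphorylate the initiation factor eIF2, most translation falls, and the Atf4 mRNA is translated better. The ATF4 protein pairs with C/EBP proteins and turns on genes of amino acid synthesis, uptake and tRNA loading, and under lasting stress genes such as Ddit3, which encodes CHOP. Because ATF4 is set largely at translation, its mRNA level does not report how active it is. The serine genes among its targets make serine from a glycolytic intermediate in 3 steps, and SHMT2 and MTHFD2 then pass the serine carbon into the mitochondrial folate pool.

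The C/EBP-ATF response element is the sequence to which ATF4 and its partner bind, so the windows that hold its core are shown for the target genes. The core was searched as TGATGNAA, where N is any base, on both strands of the RefSeq promoters of build GRCm38.p6, from 250 bases before to 50 after the start site. All 10 genes had an entry there. A core was found for 3 of the 10, Asns, Chac1 and Trib3. Over all genes of the promoter table, 4.51% held one (1219 of 27025). The capitals mark the core as it stands on the gene's strand, and each line runs 5′ to 3′ on that strand.
Asns: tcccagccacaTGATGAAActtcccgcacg
Chac1: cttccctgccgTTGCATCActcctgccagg
Trib3: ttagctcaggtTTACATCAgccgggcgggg

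The Asns window lies on chromosome 6 from 7693214 to 7693243 on the minus strand, and its core begins 23 bases before the start site, on the strand of the gene. The Chac1 window lies on chromosome 2 from 119351038 to 119351067 on the plus strand, with a core that begins 193 bases before the start site and reads TGATGCAA on the opposite strand. The Trib3 window lies on chromosome 2 from 152344028 to 152344057 on the minus strand. Its core begins 14 bases after the start site and reads TGATGTAA on the opposite strand. These positions are relative to the RefSeq start sites. By the deposited gene spans, the Trib3 core lies before the start of the gene and the Asns core within the gene. These are matches of letters, and whether ATF4 bound there was not measured. A gene without a match may still hold the element outside the stretch searched or with other letters. The palindromic CRE, another element of the ATF family, was searched as TGACGTCA and was in 0 of the 10 and in 2.03% of all genes of the promoter table.

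**Figure D1:**
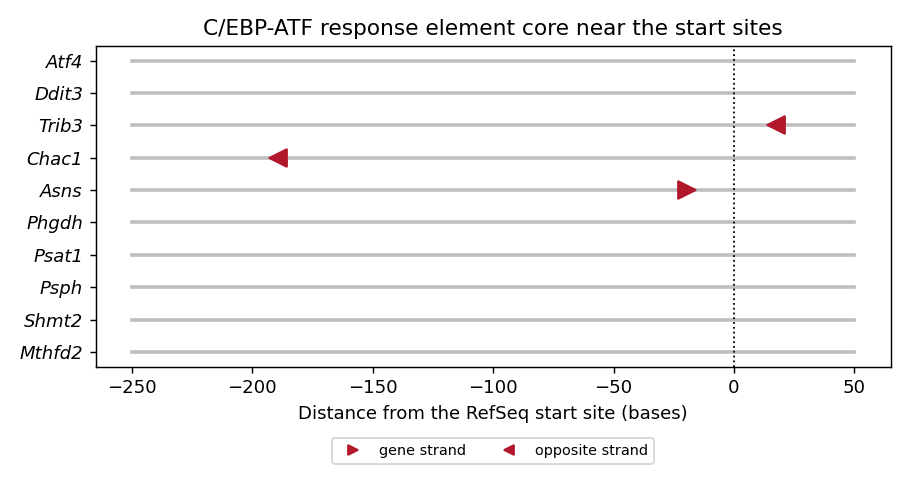
Position of each match of the response element core from 250 bases before to 50 bases after the RefSeq start site (dotted line) of the 10 genes, with arrowheads for the strand. The Asns match lies 23 bases before the start, the Chac1 match 193 bases before it and the Trib3 match 14 bases after it, and the other 7 lines are empty.

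The same search was run on the other lists. Among further known ATF4 targets, 7 of the 19 genes with an entry held the core, with Fgf21, Herpud1, Pck2, Pycr1, Slc1a4, Slc7a11 and Vldlr. Among cytosolic aminoacyl-tRNA synthetases it was 5 of 12 (Aars, Gars, Iars, Tars and Yars), and among transcription factors that pair with ATF4 or are induced beside it, 3 of 6 (Atf3, Jdp2 and Nupr1). It was in 0 of 14 other serine, glycine and folate genes, 0 of 12 ER chaperone and unfolded protein response genes and 0 of 6 genes of eIF2α, its kinases and its phosphatase subunits. Known targets were in part found through this element in earlier work, so these counts are not independent of how the lists came about.

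All 10 genes were expressed, taking a mean of at least 1 CPM as expressed, as were 12214 of all genes. Their levels ran from 1.54 CPM for Chac1 to 114 CPM for Psat1, with a median of 16.5 CPM, and summed to 276 CPM. The 11681 expressed protein-coding genes had a median of 18.3 CPM, and 3 of the 10 lay above it. To compare genes with each other, CPM was divided by the length of the exon union in GENCODE M21. On this scale 7 of the 10 lay above the median of expressed protein-coding genes, which was 4.08 CPM per kilobase, and Psph, Chac1 and Mthfd2 lay under it.

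Atf4 had a mean of 70.3 CPM with a BCV of 6.43%, above 91.2% of the protein-coding genes listed. Per kilobase it stood first of the 10, at 29.8 CPM, and second to Psat1 when the longest transcript served as length. It lies on chromosome 15 from 80255184 to 80257540 on the plus strand and is protein-coding (ENSMUSG00000042406). Among the partners of ATF4 with a leucine zipper, Cebpb, which encodes C/EBPβ, was close to it at 30.9 CPM per kilobase. Cebpg, a smaller partner, had 9.45, and the stress factors Atf5 and Atf3 had 4.22 and 2.26 CPM per kilobase. Atf4 was thus 7.06 times as abundant as Atf5 and 13.2 times as abundant as Atf3 per kilobase. Nupr1, a small stress-induced chromatin protein, stood above Atf4 at 50.2 CPM per kilobase.

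Ddit3 encodes CHOP, a partner of ATF4 that favours cell death under lasting ER stress. It had 18.2 CPM with a BCV of 9.25% and 10.6 CPM per kilobase, the third highest of the 10. The gene lies on chromosome 10 from 127290774 to 127296288 on the plus strand (ENSMUSG00000025408). Its end overlaps that of Mars, the methionyl-tRNA synthetase gene on the opposite strand, by 68 bases. Reads were aligned as stranded, but whether the counting used strand is not given in the sources used here, so reads in the overlap may belong to either gene. GENCODE M21 also annotates a second protein-coding locus under the name Ddit3, which shares 105 bases with it at 100% identity and was not among the genes listed.

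Trib3 encodes a pseudokinase that ATF4 and CHOP induce and that in turn damps ATF4. It had 12.1 CPM with a BCV of 12.1% and 5.71 CPM per kilobase. It lies on chromosome 2 from 152337422 to 152344032 on the minus strand (ENSMUSG00000032715). Its paralogs, added after their values had been seen, had 8.11 CPM per kilobase for Trib1 and 4.26 for Trib2, so the stress-induced member stood between the others.

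Chac1 encodes an enzyme that degrades glutathione and is a sensitive target of ATF4 and CHOP. It was the least abundant of the 10 by CPM, at 1.54 with a BCV of 17.9%, above 46.1% of the protein-coding genes listed. The lowest level in the table, shared by 4561 genes, was 0.163 CPM. Per kilobase Chac1 had 0.942 CPM, and Atf4 was 31.6 times as abundant. Ddit3 was 11.3 times as abundant as Chac1, or 20.0 times by the longest transcript. It lies on chromosome 2 from 119351229 to 119354381 on the plus strand (ENSMUSG00000027313). Its paralog Chac2, also added after its value had been seen, had 5.02 CPM per kilobase, which is 5.32 times the level of Chac1.

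Asns makes asparagine from aspartate and glutamine and is a long-known target of ATF4. It had 18.0 CPM with a BCV of 10.9% and 6.59 CPM per kilobase. The gene lies on chromosome 6 from 7675169 to 7693254 on the minus strand (ENSMUSG00000029752). No other GENCODE transcript shared 100 bases with it at 95% identity, and the same held for Atf4, Trib3, Chac1, Psat1 and Mthfd2.

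The mRNAs of the 3 enzymes of serine synthesis stood far apart. Psat1, the aminotransferase of the middle step, had 114 CPM with a BCV of 6.17% and exceeded 95.4% of the protein-coding genes listed. It lies on chromosome 19 from 15904678 to 15947337 on the minus strand (ENSMUSG00000024640). Phgdh, the dehydrogenase that begins the pathway, had 19.4 CPM with a BCV of 10.5%, and Psph, the phosphatase that ends it, had 5.31 CPM with a BCV of 13.6%. Per kilobase the order was Psat1 at 26.7, Phgdh at 7.81 and Psph at 1.23 CPM. Psat1 was 3.42 times as abundant as Phgdh, and Phgdh 6.36 times as abundant as Psph. Both gaps were far wider than the BCV of any of the 3 genes, which leaves out errors of length and mapping. It may also leave out the difference between the lines. Both gaps had the same direction with the other length. The steps of the pathway thus did not follow each other in mRNA level, since the mRNA of the middle enzyme was the most abundant and that of the last the least. Protein was not measured here.

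Phgdh lies on chromosome 3 from 98313170 to 98339990 on the minus strand (ENSMUSG00000053398) and Psph on chromosome 5 from 129765558 to 129787252 on the minus strand (ENSMUSG00000029446). Phgdh has many processed copies in the mouse genome. Transcripts of 16 other GENCODE loci shared at least 100 bases with it at 95% identity or more, the longest being Gm9347 with 1608 bases at 97.4%. None of the 16 was among the genes listed, which hold 0 pseudogenes. The alignment allowed up to 100 positions per read, and how reads with several positions were counted is not given in the sources used here. The level of Phgdh is therefore less certain than its BCV conveys. For Psph, 452 bases in GENCODE M21 matched the opposite strand of Cct6a, a chaperonin gene at 110 CPM. The deposited spans of Psph and Cct6a do not overlap. The level of Psph is also uncertain if strand was not used.

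Shmt2 moves the serine carbon to folate in mitochondria, and Mthfd2 oxidises the folate so formed. Shmt2 had 14.9 CPM with a BCV of 13.0% and 4.80 CPM per kilobase. Its cytosolic counterpart Shmt1 had 1.55, so the mRNA of the mitochondrial form was 3.10 times as abundant. Shmt2 lies on chromosome 10 from 127517123 to 127522444 on the minus strand (ENSMUSG00000025403), 221 kb beyond Ddit3 with 6 listed genes between them, and overlaps Ndufa4l2 on the opposite strand by 30 bases, with the same uncertainty. It also shares 180 bases at 95% identity with Gm15544, a processed pseudogene that was not among the genes listed.

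Mthfd2, a folate enzyme best known from embryos and tumors, was low in these cells. It had 2.96 CPM with a BCV of 15.3%, above 50.2% of the protein-coding genes listed, and 0.849 CPM per kilobase, the least of the 10, though by the longest transcript Chac1 was lower. It lies on chromosome 6 from 83305691 to 83317606 on the minus strand (ENSMUSG00000005667). Its paralog Mthfd2l, which carries out the same steps in adult tissues, had 0.702 CPM per kilobase, a ratio of 1.21. Mthfd1l, the next enzyme of the mitochondrial branch, stood at 12.0 and the cytosolic Mthfd1 at 4.73 CPM per kilobase. These are 14.1 and 5.57 times the level of Mthfd2, which puts Mthfd2 and its paralog at the low point of the mitochondrial branch between Shmt2 and Mthfd1l.

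**Figure D2:**
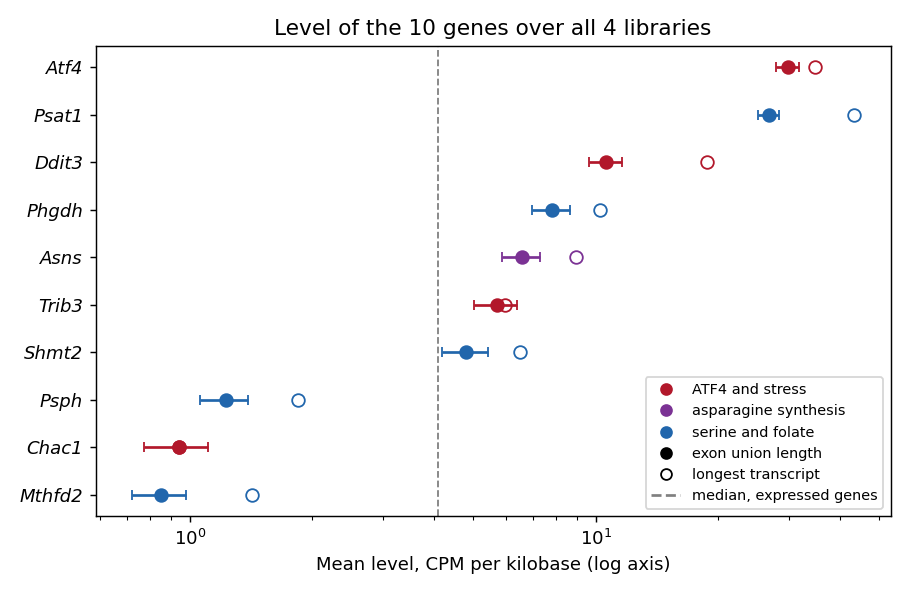
Mean level of the 10 genes over the 4 libraries in CPM per kilobase on a log axis, by the exon union (filled, with bars of 1 BCV each way) and by the longest transcript (open, hidden for Chac1, where both lengths are equal), colored by role, with the median of expressed protein-coding genes as a dashed line. Psat1 and Atf4 stand highest, and Psph, Chac1 and Mthfd2 lie below the dashed line at 4.08. The bars may leave out the difference between the lines.

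In order per kilobase, the 10 genes were Atf4, Psat1, Ddit3, Phgdh, Asns, Trib3, Shmt2, Psph, Chac1 and Mthfd2. Neighbours were compared by setting their gap beside the root of their summed squared BCVs. This spread serves as a scale only. It does not measure the error of a comparison between genes, which also rests on length and mapping. The BCV may also leave out the difference between the lines. The gap was within this spread for Asns over Trib3 (15.5% against 16.3%) and for Chac1 over Mthfd2 (10.9% against 23.5%). It was close to it for Trib3 over Shmt2 (19.0% against 17.7%), Phgdh over Asns (18.5% against 15.1%) and Atf4 over Psat1 (11.6% against 8.91%). With the length of the longest transcript in place of the exon union, Psat1 passed Atf4 at 43.4 against 34.8 CPM per kilobase, Shmt2 passed Trib3 at 6.51 against 5.98, and Mthfd2 passed Chac1 at 1.42 against 0.942. Ddit3 rested most on the length, with 18.8 CPM per kilobase against 10.6. The wide steps, from the upper pair to Ddit3 and from Shmt2 and Trib3 down to Psph, were present with both lengths.

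Upstream of ATF4, all 7 genes of eIF2 kinases, eIF2α and its phosphatase subunits were expressed. Their levels ran from 3.97 to 12.4 CPM per kilobase. The highest was Ppp1r15b, the phosphatase subunit present without stress. Among the kinases, Eif2ak1, which senses haem, had 8.55, Eif2ak2, which senses double-stranded RNA, 7.97, Eif2ak3 (PERK), which senses ER stress, 5.98, and Eif2ak4 (GCN2), which senses amino acid lack, 3.97 CPM per kilobase. Ppp1r15a (GADD34), the subunit that ATF4 and CHOP induce, had 5.53.

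Downstream, known ATF4 targets outside the 10 ranged widely, and 18 of 24 were expressed, beside 11681 of all 20674 protein-coding genes listed. The highest by CPM were Slc38a2, a carrier of neutral amino acids, at 463 CPM and Vldlr, a lipoprotein receptor, at 145 CPM. Per kilobase, Ddit4, an inhibitor of mTORC1, had 54.9 and Slc38a2 52.4 CPM, and by the longest transcript Slc38a2 was the higher at 75.7. Below 1 CPM were Cbs and Cth, which make cysteine from homocysteine, Pycr1 of proline synthesis, the carrier gene Slc7a3, and the secreted factors Fgf21 and Stc2. Gdf15, another secreted stress factor, had 1.58 CPM.

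The aminoacyl-tRNA synthetases were a more even list, with all 20 expressed between 3.91 and 28.9 CPM per kilobase and a median of 10.99. By CPM, Eprs and Sars led them at 130 and 111, whereas per kilobase Gars was first at 28.9 and Eprs had 7.17. The 10 genes had a median of 6.15 CPM per kilobase, and the other serine, glycine and folate genes had 1.51, with 17 of 18 expressed. There the highest by CPM were Sfxn1, a mitochondrial serine carrier, at 77.2 and Mthfd1l at 53.0. Per kilobase Mthfd1l was first at 12.0, and Sfxn1 had 7.84. The exception below 1 CPM was Gldc, the glycine-cleaving enzyme of the glycine cleavage system, at 0.242 CPM.

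The list of ER chaperones and of the unfolded protein response outside ATF4, which also holds its regulators Atf6, Xbp1 and Ern1, had the highest median of the 7 lists drawn in the plot of levels by list. All 15 genes were expressed, with a median of 22.3 CPM per kilobase. Calr and Hspa5 (BiP), lectin and HSP70 chaperones of the ER, had 263 and 171 CPM per kilobase, 8.82 times Atf4 and 16.0 times Ddit3 (10.5 times by the longest transcript). These are levels of different genes and not responses to stress.

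**Figure D3:**
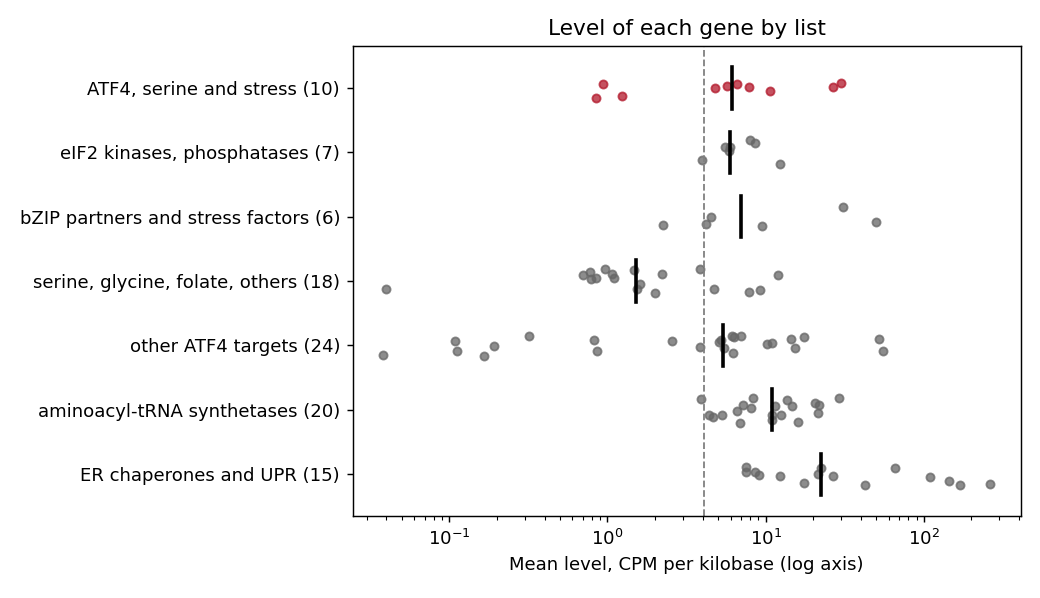
Mean level of each gene in CPM per kilobase on a log axis, by list, with the median of each list as a black bar and the median of expressed protein-coding genes as a dashed line. The 10 genes (red) have a median of 6.15. The ATF4 partners and stress factors (6.99), tRNA synthetases (10.99) and ER chaperone and unfolded protein response genes (22.3) have higher medians. The eIF2 genes (5.98), other ATF4 targets (5.35) and other serine, glycine and folate genes (1.51) have lower medians.

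The BCV of each gene was set beside that of the 200 genes nearest in level, since it falls as the level rises. Of the 10 genes, 4 had a BCV above the median of their neighbours, and a median leaves about as many genes above as below. These 4 were Shmt2 (13.0% against 10.2%), Trib3 (12.1% against 10.9%), Asns (10.9% against 9.47%) and Phgdh (10.5% against 9.25%). Shmt2 exceeded 89.0% of its neighbours, Phgdh 82.5%, Asns 80.0% and Trib3 74.0%. The low genes lay under the median of their neighbours, with Chac1 at 17.9% against 21.6%, Mthfd2 at 15.3% against 17.6% and Psph at 13.6% against 15.0%. Chac1 exceeded 6.5% of its neighbours, Mthfd2 13.5% and Psph 20.0%. Atf4 (6.43% against 6.66%), Psat1 (6.17% against 6.43%) and Ddit3 (9.25% against 9.44%) were close to the median of theirs. How the dispersion was estimated, and whether the line entered as a term, is not given in the sources used here. The BCV may therefore hold only the spread between duplicates of a line, without the difference between the lines.

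**Figure D4:**
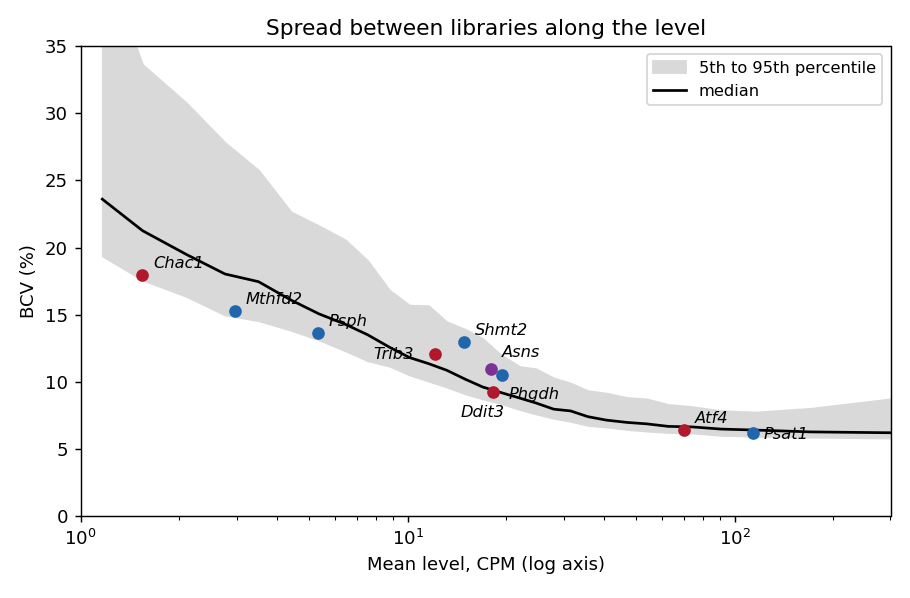
BCV in percent against mean level in CPM (log axis) for the 10 genes, with the median (line) and the 5th to 95th percentile (band) of expressed genes. Shmt2, Asns, Phgdh and Trib3 lie above the line, and Chac1, Mthfd2 and Psph below it. All 10 genes lie within the band.

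All 10 genes are protein-coding. They lie on 7 chromosomes, and besides Ddit3 and Shmt2 the pairs on 1 chromosome lay 33.0 Mb (Chac1 and Trib3) and 75.6 Mb (Asns and Mthfd2) apart. The GC content of their promoter windows ran from 42.7% for Shmt2 to 66.7% for a start site of Psat1, with a median of 60.3%, beside 52.7% over all promoters.

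A single gene, Gm26924, made up 29.7% of the summed mean CPM, and the CPM of every other gene rests in part on it. The cell identity was checked with marker lists. Of 8 markers of ovarian surface and mesothelial epithelium, all were expressed, from Krt7 at 1.91 and Lrrn4 at 5.75 CPM to Wt1 at 153 and Krt19 at 938 CPM. Of 7 leukocyte markers, 2 were expressed, the higher being Cd68 at 13.0 CPM, while Ptprc had 0.224 CPM and Lyz2 was at the lowest level. Of 5 endothelial markers only Pecam1 passed 1 CPM, at 4.62, and of 5 fibroblast markers Dcn (320 CPM), Pdgfra (8.39) and Col1a1 (1.57) did, with Lum at the lowest level.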

How the data were processed

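Stranded RNA-seq of 4 libraries was used. Per the submitters' processing notes, CASAVA 1.8.2, Trimmomatic 0.22, TopHat2 2.0.6, Bowtie2 2.0.2 and edgeR 3.20.8 were run. By the study's methods, reads were aligned as stranded to the mouse Ensembl genome with up to 100 positions per read and summed per gene with at most 2 mismatches. The notes name a human build, whereas identifiers and chromosomes are mouse. The log2 CPM per gene was deposited by the authors as a mean over all libraries, with a small count added, and was put back on the CPM scale. The dispersion, a score per gene from edgeR, was also deposited by the authors.

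The fold changes, p-values, adjusted p-values and calls of the authors' comparison were not used. The 4 count columns, named by no label, were not used either. The planned edgeR fit and its alternatives could not be run, so no test was made, and depth per library is not given.

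Of the 23875 genes, 23382 had their identifier in GENCODE M21 (GRCm38) and 18929 the same start or end there, among them all 10 genes, whose coordinates are those of the deposited table. Exon lengths came from GENCODE M21 and promoters from RefSeq, matched by symbol. Shared stretches were sought with blastn 2.17.0 and other steps with Python 3.11.15, numpy 2.4.6 and pandas 2.3.3. The motif search and ranks were tested on simulated data. Members and lists were chosen with earlier results of these data known. The rule for other genes was the 2 most abundant of each list, since its part on calls could not be applied. Further genes were named after their values were seen.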

Additional observations from a re-analysis of the deposited data

How the results depend on the processing

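The alternatives listed at the start (other normalizations, filters, tests and thresholds, and each library left out) need counts per library and were not run. No paired analysis was possible because the columns carry no replicate numbers that the labels use. The alternatives given here were chosen after seeing the data. With the longest transcript as length, 7 of the 10 genes were again above the median of expressed protein-coding genes, and the level of 8 moved by more than its BCV. For Ddit3, Mthfd2, Psat1 and Psph it rose by over 1.5 times, at most 1.77 times for Ddit3. Leaving Gm26924 out of the total multiplied every CPM by 1.42, so all 10 necessarily stayed above 1 CPM. Among expressed protein-coding genes only, Atf4 exceeded 84.5%, Psat1 91.9% and Chac1 4.56%. No value separates ID8-P0 from ID8-PW2, and the unknown depth limits the low genes Chac1 and Mthfd2 most.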
